A study of Mus musculus with 12 samples.

Results

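Endothelial identity genes encode the junction proteins, surface molecules, signalling proteins and transcription factors by which blood vessel lining cells are recognised. 10 of them were followed here: Pecam1, Cdh5, Emcn, Plvap, Ehd3, Sox17, Sox18, Robo4, Dll4 and Esam. The members were chosen by symbol, and each was represented by its brightest probe on average. They were 10 of 23993 gene symbols on the array.

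RNA was measured on 12 one-colour Agilent arrays of mouse kidney tissue. Fresh whole kidneys without ureter came from ICR wild type mice, with 1 array for each of 5 stages. These were the embryonic days E11.5, E13.5 and E15.5, then E17.5, and lastly P0, the day of birth. A further array held E11.5 kidney of the same strain after 7 days of culture. The other arrays held kidney organoids, taken immediately after reconstruction (day 0, n = 3) or after 7 days of culture (day 7, n = 3). Organoids were reconstructed from nephron progenitors and ureteric bud derived from mouse embryonic stem cells of B6 and 129SV background, joined with stromal progenitors of ICR E11.5 kidney. Embryonic kidney and organoids were cultured on transwells with 50% Matrigel in DMEM/F12 and 10% serum. The organoid therefore mixed cells of different strains, and no endothelial component is named among its parts.

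Endothelial cells line vessels and are held together by homophilic adhesion proteins at their borders. In the developing kidney, angioblasts and ingrowing vessels build a capillary network around the nephrons, and a specialised, fenestrated endothelium fills the glomerulus. Transcription factors of the ETS and SoxF families maintain endothelial identity, and Notch signalling separates arterial from venous cells.

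A value is the log2 of the processed signal minus the log2 of the array's 75th percentile, so that 0 marks a signal at that percentile and a step of 1 is a factor of 2. Levels are compared within a gene only, since probes differ in brightness. The signal at that percentile was 126 to 138 for uncultured organoids and 201 to 287 for all other samples. Of 55681 probes, the share well above background was 50.6% to 54.2% for uncultured organoids and 56.1% to 63.2% otherwise. Slide 1 carried every kidney array together with day 0 replicates 1 and 2. Slide 2 carried day 0 replicate 3 together with all day 7 replicates. Differences are given ± the standard error of limma's model, and a gene rose, fell, or was called higher or lower, where limma's two-sided test gave an adjusted p under 0.05 over all genes tested. The labels do not say whether the organoid replicates were separate cultures, so p-values measure only the spread between these arrays. In comparisons with kidney the lone kidney array was assumed to vary like the organoid replicates.

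Promoters of 4 of the 10 members were in the RefSeq table used (GRCm38.p6). These 4 are shown because they were available, and they were not picked by how the genes moved. Each run is the 250 bases before the gene's start on the plus strand, 5′ to 3′, and capitals mark AGGAAG or CGGAAG on either strand, 2 forms of the ETS factor core.
Emcn: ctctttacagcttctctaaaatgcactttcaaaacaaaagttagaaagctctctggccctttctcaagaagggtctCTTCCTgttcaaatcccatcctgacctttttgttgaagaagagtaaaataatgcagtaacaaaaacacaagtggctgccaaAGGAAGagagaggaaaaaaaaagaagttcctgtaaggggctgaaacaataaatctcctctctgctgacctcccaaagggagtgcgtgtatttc
Ehd3: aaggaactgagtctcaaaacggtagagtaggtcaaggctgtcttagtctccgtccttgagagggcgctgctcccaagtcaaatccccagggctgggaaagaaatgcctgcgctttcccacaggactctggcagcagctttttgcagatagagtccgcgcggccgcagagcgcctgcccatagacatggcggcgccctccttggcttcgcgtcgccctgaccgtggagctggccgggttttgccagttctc
Robo4: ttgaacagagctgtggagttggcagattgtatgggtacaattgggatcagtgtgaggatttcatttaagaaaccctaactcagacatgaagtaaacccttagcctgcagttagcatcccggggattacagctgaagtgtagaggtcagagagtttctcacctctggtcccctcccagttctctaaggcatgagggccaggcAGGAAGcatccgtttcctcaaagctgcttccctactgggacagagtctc
Dll4: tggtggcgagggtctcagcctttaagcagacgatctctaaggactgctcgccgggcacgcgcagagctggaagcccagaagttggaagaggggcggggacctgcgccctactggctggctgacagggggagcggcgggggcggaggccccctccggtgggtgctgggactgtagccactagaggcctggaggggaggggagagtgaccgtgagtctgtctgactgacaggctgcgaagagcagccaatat
The Emcn window, chr3:137340828-137341077, held AGGAAG on the minus strand from -174 to -169 and on the plus strand from -93 to -88, counted back from the start. In the Robo4 window, chr9:37401722-37401971, AGGAAG lay from -49 to -44. The Ehd3 window, chr17:73804591-73804840, and the Dll4 window, chr2:119325534-119325783, held neither form. ACAAT, a form of the Sox factor core, was found at 1 place for Emcn and 2 for Robo4, and GATAA, a form of the GATA factor core, at none of the 4. Of 32851 promoters of this length, 39.2% held AGGAAG or CGGAAG, 27.7% held ACAAT and 22.6% held GATAA. These matches describe letters in a window.

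The first comparison asked how far the members changed while organoids were cultured. 9 of the 10 members rose from day 0 to day 7, with Cdh5, Esam, Sox17 and Sox18 at the upper end and Plvap and Pecam1 at the lower end, and Ehd3 did not pass the test. Of 16411 genes tested, 28.6% were called higher and 41.6% lower. The median difference of the members was 3.21, against -0.17 over all genes tested. The day 7 arrays lay above the day 0 arrays without overlap for the same 9 members, as did 30.6% of all genes. Ehd3 was among the 45.6% of genes whose day 7 arrays lay below the day 0 arrays without overlap. Under normexp background correction, which treats dim signals differently, the same 9 members were called with smaller differences, from 0.62 for Pecam1 to 2.59 for Cdh5, and Ehd3 was at -0.08. In whole tissue, fewer cells of a type and less RNA per cell cannot be told apart.

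**Figure D1:**
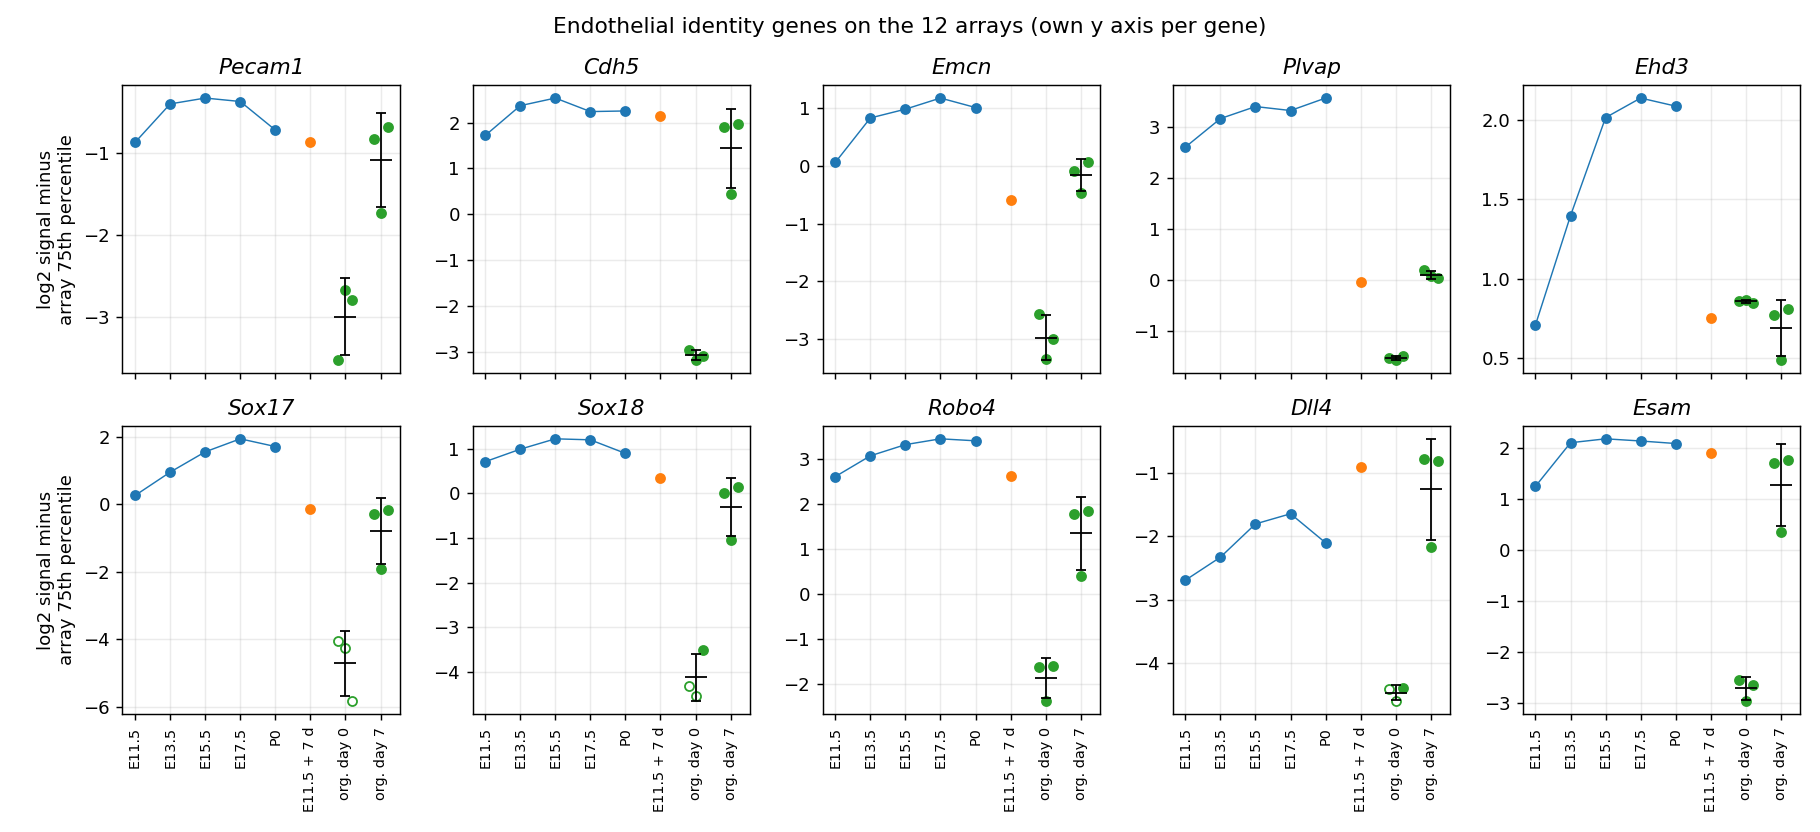
Level of each gene (log2 signal minus the array's 75th percentile, own y axis per gene) on the 12 arrays, with fresh kidneys in blue joined by a line, cultured E11.5 kidney in orange and organoids in green. Bars are the mean ± SD of 3 organoid arrays, and open points were not well above background. In 9 panels the day 0 points lie below every other point, and in the Ehd3 panel they lie between the fresh kidneys of E11.5 and E13.5.

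Cdh5 encodes VE-cadherin, the adherens junction cadherin of endothelium (probe at chr8:106668159-106668218, mm9). Its level was 1.72, 2.37, 2.54, 2.24 and 2.25 in fresh kidney from E11.5 to P0 and 2.14 in cultured kidney. In organoids it was -2.96, -3.18 and -3.09 at day 0 and 1.90, 0.45 and 1.98 at day 7. The day 0 arrays stood far below all the others, and day 7 replicate 2 lay below its companions. Cdh5 rose by 4.52 ± 0.40 over the culture (22.9-fold, limma adjusted p = 1.13e-04), and at day 0 it was lower than in E11.5 kidney (-4.80 ± 0.58, 27.8-fold, adjusted p = 0.00266).

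Esam encodes an immunoglobulin-type adhesion molecule of endothelial tight junctions, which platelets also carry (chr9:37345795-37345854, mm9). Fresh kidney gave 1.25, 2.11, 2.19, 2.14 and 2.09 and cultured kidney 1.90. Day 0 organoids gave -2.54, -2.96 and -2.64, and day 7 organoids 1.71, 0.35 and 1.77. The pattern was that of Cdh5, with an r of 0.998 between the pair over the 12 arrays, given as a description of arrays that share groups. Esam rose by 3.99 ± 0.38 in organoids (15.9-fold, limma adjusted p = 1.62e-04) and stood 15.6-fold below E11.5 kidney at day 0 (-3.97 ± 0.56, adjusted p = 0.00417).

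Pecam1 encodes CD31, a junction molecule of endothelium that is also found on platelets and leukocytes (chr11:106540864-106540923, mm9). Its level was -0.87, -0.41, -0.33, -0.38 and -0.72 in fresh kidney and -0.87 in cultured kidney. It was -3.53, -2.67 and -2.79 at day 0 and -0.84, -1.74 and -0.69 at day 7. Among the junction genes it had the narrowest gap between day 0 and the rest. It rose by 1.91 ± 0.34 (3.75-fold, limma adjusted p = 0.00250) and was 4.36-fold lower at day 0 than in E11.5 kidney (-2.12 ± 0.49, adjusted p = 0.0212).

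Robo4 encodes a Roundabout-family receptor of endothelium that is known for stabilising vessels (chr9:37221547-37221606, mm9). Fresh kidney gave 2.62, 3.08, 3.33, 3.46 and 3.42, and cultured kidney gave 2.64. Day 0 organoids gave -1.61, -2.37 and -1.59, and day 7 organoids 1.80, 0.41 and 1.85, all below the lowest kidney array. The rise was 3.21 ± 0.43 (9.28-fold, limma adjusted p = 6.70e-04), after a deficit at day 0 of -4.48 ± 0.62 against E11.5 kidney (22.3-fold, adjusted p = 0.00402).

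Dll4 encodes a Notch ligand of arterial and sprouting endothelium (chr2:119160779-119160838, mm9). In fresh kidney its level was -2.70, -2.33, -1.81, -1.65 and -2.11, and in cultured kidney it was -0.91. Day 0 organoids gave -4.41, -4.60 and -4.39, of which the first 2 were not well above background. Day 7 organoids gave -0.79, -2.18 and -0.82. Cultured tissue was therefore the brightest for this gene, with 2 of the 3 day 7 arrays and the cultured kidney above every fresh stage. Dll4 rose (3.20 ± 0.37, limma adjusted p = 3.61e-04), and no fold is given since 1 of 3 day 0 arrays was well above background. Its difference from E11.5 kidney at day 0 was -1.77 ± 0.54 (adjusted p = 0.0477), and under normexp background correction it was 0.02 (adjusted p = 0.963). That call was also lost on leaving out any day 0 replicate or day 7 replicate 1 or 3 (adjusted p from 0.0545 to 0.0896).

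Sox17 and Sox18 encode SoxF transcription factors, of which Sox17 is known for arterial endothelium and for endoderm, and Sox18 for blood and lymphatic vessels. Sox17 (chr1:4481503-4481562, mm9) measured 0.26, 0.95, 1.55, 1.93 and 1.71 in fresh kidney and -0.15 in cultured kidney. It was not well above background on any day 0 array (-4.05, -4.27 and -5.84) and reached -0.28, -1.92 and -0.17 at day 7. Sox17 rose at least 11.6-fold over the culture (3.93 ± 0.63, limma adjusted p = 0.00156) and was at least 23.9-fold lower at day 0 than in E11.5 kidney (-4.98 ± 0.91, adjusted p = 0.00998). These bounds set the dim arrays at the lowest signal well above background or at their own value, whichever was higher. They hold for the brighter Sox17 probe only. The second Sox17 probe gave smaller differences in the same directions, 3.01 over organoid culture and -4.27 at day 0 against E11.5 kidney. Day 0 replicate 3 gave the lowest Sox17 value of all.

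Sox18 (chr2:181404789-181404848, mm9) measured 0.71, 0.99, 1.22, 1.20 and 0.89 in fresh kidney and 0.35 in cultured kidney. Day 0 organoids gave -4.32, -4.53 and -3.52, and only the third was well above background. Day 7 organoids gave -0.0019, -1.05 and 0.15. The highest day 7 array was still below the cultured kidney. Sox18 rose (3.82 ± 0.39, limma adjusted p = 2.00e-04) and at day 0 was lower than in E11.5 kidney (-4.83 ± 0.56, adjusted p = 0.00236). Both sizes rest on a day 0 mean with 1 of 3 arrays well above background, so no fold is given.

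Emcn encodes endomucin, a mucin-like glycoprotein on the surface of capillary and venous endothelium (chr3:137086389-137086448, mm9). Its level was 0.06, 0.82, 0.98, 1.17 and 1.0 in fresh kidney and -0.59 in cultured kidney, the lowest of the kidney arrays. Organoids gave -2.56, -3.35 and -3.00 at day 0 and -0.08, -0.47 and 0.07 at day 7. All 3 day 7 values lay above the cultured kidney and below E13.5. Emcn rose by 2.81 ± 0.23 (7.00-fold, limma adjusted p = 7.93e-05) and was lower at day 0 than in E11.5 kidney by 8.14-fold (-3.03 ± 0.33, adjusted p = 0.00199).

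Plvap encodes the protein that forms the diaphragms of endothelial fenestrae (chr8:74021877-74021936, mm9). Fresh kidney gave 2.61, 3.17, 3.40, 3.33 and 3.57, whereas cultured kidney gave -0.03. Day 0 organoids gave -1.53, -1.57 and -1.48, and day 7 organoids 0.19, 0.08 and 0.05. Both kinds of cultured tissue thus lay together, well below every fresh stage. Plvap rose by 1.63 ± 0.077 (3.1-fold, limma adjusted p = 9.19e-06) and was 17.6-fold lower at day 0 than in E11.5 kidney (-4.14 ± 0.11, adjusted p = 7.89e-05). The second Plvap probe gave 1.34 over organoid culture and -2.66 between fresh and cultured E11.5 kidney, in the same directions as the brighter probe (1.63 and -2.64).

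Ehd3 encodes an EH-domain protein of endocytic recycling that marks glomerular endothelium in kidney (chr17:74181371-74181428, mm9). Fresh kidney gave 0.71, 1.40, 2.02, 2.14 and 2.09, and cultured kidney gave 0.75. Organoids gave 0.86, 0.87 and 0.85 at day 0 and 0.77, 0.48 and 0.81 at day 7. The day 0 values thus lay slightly above the E11.5 value, unlike those of the other 9 members. The difference between day 7 and day 0 was -0.17 ± 0.10 (interval -0.42 to 0.08, limma adjusted p = 0.180), and between day 0 and E11.5 kidney it was 0.15 ± 0.15 (adjusted p = 0.463).

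**Figure D2:**
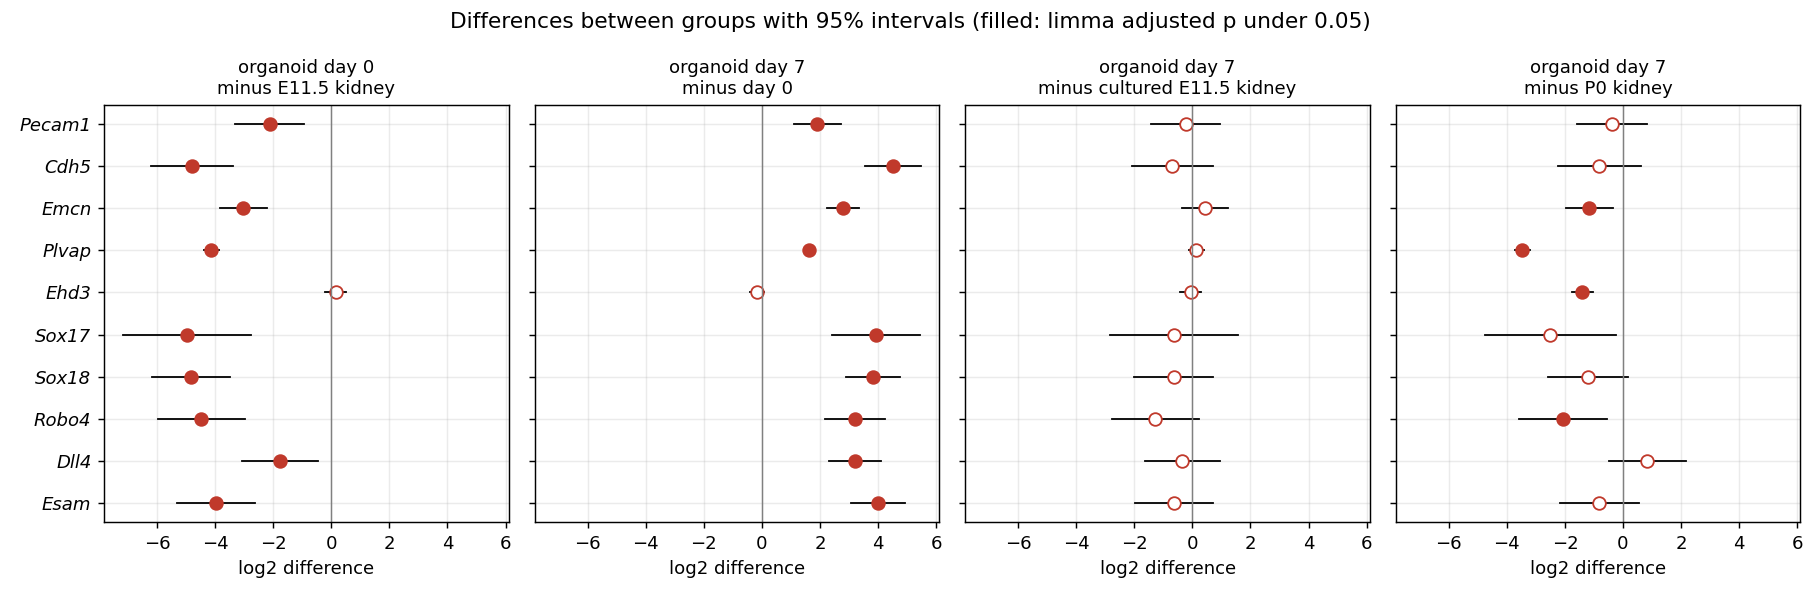
Log2 differences between groups for the 10 genes, as points with 95% intervals, where filled points had a limma adjusted p under 0.05. From left to right the panels hold 9 calls below 0, 9 calls above 0, none, and 4 calls below 0.

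Against E11.5 kidney, the tissue that supplied the stroma, uncultured organoids were lower in 9 of 10 members and higher in 0. Of 17004 genes tested, 15.7% were called lower and 17.6% higher. The median of the members was -4.05 and that of all genes 0.04. Among all calls 53.0% were higher, or 67.2% under normexp correction. Under normexp the differences ran from -0.73 for Pecam1 to -3.33 for Robo4, apart from Dll4 as given above. On slide 1 alone, where day 0 replicates 1 and 2 supplied all of the spread, the same 9 members were called, with Cdh5 at -4.79 ± 0.20 (adjusted p = 0.00660) and Ehd3 at 0.15 ± 0.17 (adjusted p = 0.577). Within slide 2 day 0 replicate 3 alone stood for day 0 and was assumed to vary like the day 7 arrays, which supplied all of the spread. The rise over organoid culture was called there for the same 9 members, from 1.59 for Plvap to 4.53 for Cdh5 among the 8 that were well above background on that array, which leaves out Sox17.

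The question of how cultured organoids stood against kidney after the same 7 days in culture was addressed by the lone cultured E11.5 kidney array. No member was called in either direction, and of 16897 genes 4.66% were called higher and 3.25% lower by limma. For 10 members a count of 0 is near that share of all genes. At an unadjusted p under 0.05 the count of members was also 0. The member median was -0.49. The largest difference was that of Robo4 (-1.28 ± 0.62, interval -2.77 to 0.21, adjusted p = 0.233), followed by Cdh5 (-0.69, interval -2.09 to 0.70). The intervals for Plvap (0.14, -0.12 to 0.40) and Ehd3 (-0.06, -0.42 to 0.29) were narrow, but they rest on the spread of the organoid arrays. The second Plvap probe gave 0.49, outside the interval of the brighter probe. The interval for Sox17 (-0.65, -2.85 to 1.56) covered differences of more than 2-fold either way, and that for Sox18 (-0.65, -2.0 to 0.71) more than 2-fold lower. Pecam1 differed by -0.22 (interval -1.41 to 0.96) and Esam by -0.62 (interval -1.96 to 0.72). Emcn differed by 0.43 (interval -0.37 to 1.22) and Dll4 by -0.36 (interval -1.65 to 0.94). Slide and tissue differ together here, since all day 7 arrays were on slide 2 and the kidney on slide 1, and slide as a block called 0 members. Of all calls 58.9% were higher, or 80.1% with each array scaled to its median.

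Against newborn kidney, day 7 organoids were lower in 4 members and higher in 0. Of 17579 genes 18.0% were called lower and 24.4% higher. The 4 were Plvap (-3.47 ± 0.11, 11-fold, limma adjusted p = 3.27e-05), Ehd3 (-1.40 ± 0.15, 2.64-fold, adjusted p = 0.00101), Emcn (-1.17 ± 0.33, 2.24-fold, adjusted p = 0.0334) and Robo4 (-2.06 ± 0.62, 4.17-fold, adjusted p = 0.0403). The second Plvap probe gave a smaller difference, -2.64. Sox17 differed by -2.50 ± 0.92 (adjusted p = 0.0719) and Sox18 by -1.19 ± 0.56 (adjusted p = 0.136). The junction genes differed by -0.36 for Pecam1, -0.81 for Cdh5 and -0.82 for Esam, with intervals that held 0. With slide as a block, or without day 7 replicate 1, only Plvap and Ehd3 of the members were called lower. The Emcn call was also lost without day 7 replicate 2 or day 0 replicate 3 (adjusted p = 0.0647 and 0.0546), and the Robo4 call without day 0 replicate 1 or 3 (adjusted p = 0.0590 and 0.0598). Of all calls 57.6% were higher, or 68.1% under normexp correction.

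Against E15.5 kidney, 3 members were lower and 0 higher, with 15.4% of 17893 genes called lower and 14.7% higher. They were Plvap (-3.30 ± 0.11, 9.84-fold, limma adjusted p = 1.26e-04), Ehd3 (-1.33 ± 0.15, 2.51-fold, adjusted p = 0.00245) and Emcn (-1.14 ± 0.33, adjusted p = 0.0487). The Emcn call stood in 6 of 15 alternatives (adjusted p up to 0.237). It was lost on leaving out any day 7 replicate or day 0 replicate 3 (adjusted p from 0.0635 to 0.0930). With slide as a block, 2 members, Plvap and Ehd3, were called lower. Dll4 was the member that lay on the other side, 0.55 ± 0.54 above E15.5 kidney (adjusted p = 0.480) and 0.84 ± 0.54 above newborn kidney (adjusted p = 0.251). Without day 7 replicate 2 these became 1.0 (adjusted p = 0.0113) and 1.30 (adjusted p = 0.00304). The 2 comparisons share the day 7 arrays. Of all calls against E15.5 kidney 48.8% were higher, or 61.9% with scaling to the median.

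In E11.5 kidney itself, on 1 array each and without a test, 7 days of culture moved 2 of the 10 members past 2-fold, 1 in each direction. Plvap was 6.24-fold lower after culture (a log2 difference of -2.64) and Dll4 3.46-fold higher (1.79). The remaining 8 members moved by less than 2-fold, from -0.64 for Emcn to 0.64 for Esam, and the median over the members was 0.01. Over all 17599 genes compared, 8.54% were past 2-fold lower and 13.0% past 2-fold higher, so the share of members within 2-fold was near that of all genes. Set against E17.5 kidney, 4 members were past 2-fold lower in the cultured kidney, where 10.1% of genes were. They were Plvap (10.3-fold), Sox17 (4.23-fold), Emcn (3.38-fold) and Ehd3 (2.62-fold). No member was past 2-fold higher, as against 7.76% of genes, and Dll4 stood at 0.74.

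The culture change of the organoid exceeded that of the kidney in 5 members by a test of the difference itself. They were Plvap (4.27 ± 0.15, limma adjusted p = 7.78e-04), Emcn (3.45 ± 0.47, adjusted p = 0.00969), Sox18 (4.19 ± 0.80, adjusted p = 0.0232), Cdh5 (4.10 ± 0.83, adjusted p = 0.0268) and Esam (3.35 ± 0.79, adjusted p = 0.0410). Each value equals the day 7 difference from cultured kidney minus the day 0 difference from E11.5 kidney. It is therefore not independent of those comparisons. The 2 parts were 0.14 and -4.14 for Plvap, 0.43 and -3.03 for Emcn and -0.65 and -4.83 for Sox18. For Cdh5 they were -0.69 and -4.80, and for Esam -0.62 and -3.97. For Plvap the organoid change was a rise from a low level and the kidney change a drop. Over 17742 genes 8.61% were called in this direction and 6.97% in the other. Robo4 (3.20 ± 0.88, adjusted p = 0.0603), Sox17 (4.33 ± 1.30, adjusted p = 0.0742), Pecam1 (1.90 ± 0.70, adjusted p = 0.120), Dll4 (1.41 ± 0.77, adjusted p = 0.25) and Ehd3 (-0.21 ± 0.21, adjusted p = 0.522) did not pass. With slide as a block, the calls of Plvap and Emcn remained. Without day 7 replicate 2, 8 members were called. Without any one of the other organoid replicates, 2 or 3 were called. Of all calls 55.3% were higher, or 66.7% with scaling to the median and 35.3% under normexp correction.

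**Figure D3:**
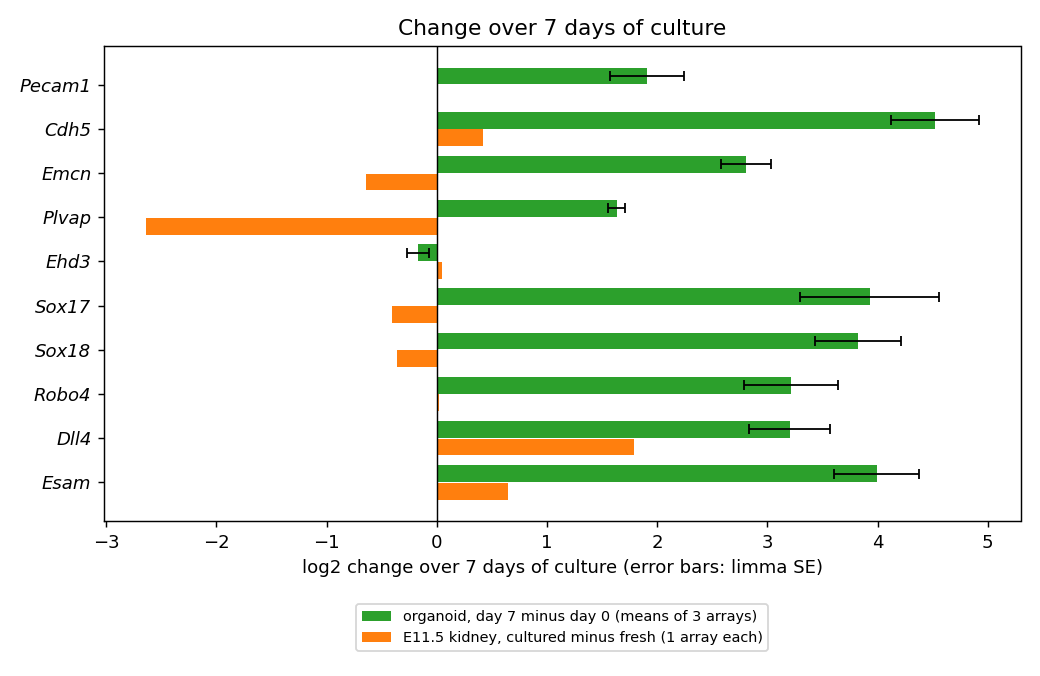
Log2 change over 7 days of culture for the 10 genes, in organoids (green, difference of means of 3 arrays, error bars are limma's SE) and in E11.5 kidney (orange, 1 array each). Green bars reach from -0.17 for Ehd3 to 4.52 for Cdh5, and orange bars from -2.64 for Plvap to 1.79 for Dll4.

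Across the 5 fresh stages, Sox17 and Ehd3 rose with stage, with slopes of 0.39 ± 0.092 (limma adjusted p = 0.0391) and 0.35 ± 0.087 (adjusted p = 0.0436) per step between stages. Of 18740 genes 12.7% had a rising and 15.0% a falling trend. Both calls were lost on leaving out any single stage (adjusted p from 0.0524 to 0.153) and with scaling to the median. Plvap (0.21 ± 0.063, adjusted p = 0.0658), Robo4 (0.20 ± 0.060, adjusted p = 0.0664) and Emcn (0.22 ± 0.084, adjusted p = 0.105) had positive slopes that did not pass. The slopes of Pecam1 (0.03), Sox18 (0.06) and Cdh5 (0.09) were nearer to 0. All 10 members had a higher value at E13.5 than at E11.5 and at E15.5 than at E13.5. Neither step held a member past 2-fold. From E11.5 to E13.5, 6.19% of genes were past 2-fold higher and 6.88% lower, and from E13.5 to E15.5, 8.99% and 1.74%. From E15.5 to E17.5 the value was higher for 5 of 10, and from E17.5 to P0 for 2, Plvap and Cdh5. No member was past 2-fold in these later steps either, against 5.56% of genes higher and 2.32% lower in the former and 4.38% and 3.32% in the latter. Between E11.5 and P0, Sox17 differed by 1.45 and Ehd3 by 1.38. Of all trend calls 45.9% were rising, or 64.4% with scaling to the median.

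When the levels of a gene were put in order, neighbouring groups mostly did not differ beyond their interval. For Pecam1, Cdh5, Sox17, Sox18 and Robo4 the order closed with day 7 organoids and then day 0 organoids, and only that last step passed its interval. For Esam and Dll4 the sole step past its interval was likewise the one down to day 0 organoids, there from E11.5 kidney. For Emcn it was the step from cultured kidney to day 0 organoids (2.38). Plvap and Ehd3 had steps elsewhere. Plvap stepped down from E13.5 to E11.5 kidney (0.56), from E11.5 kidney to day 7 organoids (2.50) and from cultured kidney to day 0 organoids (1.49). Ehd3 stepped down from E15.5 to E13.5 kidney (0.62) and from E13.5 kidney to day 0 organoids (0.54). The members were chosen with the earlier results of these data known, so this order is a description.

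Within the day 7 organoids, replicate 2 was lower than the mean of replicates 1 and 3 by at least 2-fold in 6 of the 10 members. The values were -1.69 for Sox17, -1.49 for Cdh5, -1.41 for Robo4, -1.39 for Esam, -1.38 for Dll4 and -1.12 for Sox18. Pecam1 (-0.98), Emcn (-0.46) and Ehd3 (-0.30) were also lower, and Plvap differed by -0.04. Over the 16112 genes above background at day 7, 79 (0.490%) were at least 2-fold lower in replicate 2. Replicates 1 and 3 differed from each other by at most 0.15 in each member. The summed signal of 21 general endothelial genes, in units of the array's 75th percentile, was 138 and 135 in replicates 1 and 3 and 88.0 in replicate 2. Of 20 general endothelial genes compared, 9 were at least 2-fold lower in replicate 2, and of 10 mural cell genes 0. The mural cell sum was 338, 312 and 282 in replicates 1, 2 and 3, with Acta2 by far the brightest mural cell gene (day 7 mean 7.78). Of 12 macrophage and leukocyte genes, 4 were well above background in replicate 1, 11 in replicate 2 and 10 in replicate 3. The part of cell content in the gap was not tested. Every rise over organoid culture listed above was called without replicate 2 as well.

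**Figure D4:**
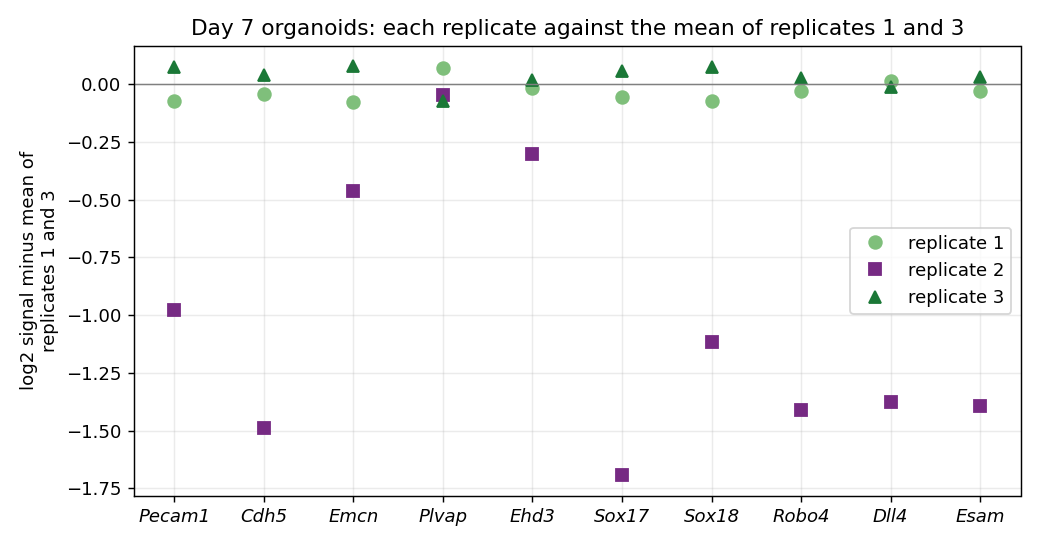
Log2 signal of each day 7 organoid array minus the mean of replicates 1 and 3, for the 10 genes. Squares mark replicate 2, which lies from -1.69 for Sox17 to -0.04 for Plvap, while replicates 1 and 3 lie close to 0.

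Other endothelial genes were read from lists of known markers, which were chosen with earlier results of these data known. Over organoid culture 28.6% of all genes tested rose and 41.6% fell, the shares beside which each list count over that culture stands. Of 21 general endothelial genes, 20 could be tested over organoid culture, and 19 rose and 1 fell. Ptprb, a receptor phosphatase, rose by 4.74 ± 0.65, Icam2, an adhesion molecule, by 4.54 ± 0.47, Cd93, a surface lectin, by 4.50 ± 0.31, and Flt1, a VEGF receptor, by 4.46 ± 0.28 (23.2-fold for Icam2, 22.7-fold for Cd93 and 22.0-fold for Flt1). Ptprb was well above background on 2 of 3 day 0 arrays. Kdr, the main signalling receptor of VEGF, fell by 1.06 ± 0.085, the only general endothelial gene to do so (limma adjusted p = 7.33e-05). It is named because it was the single exception, after its value was seen. Kdr was also the only one that was higher at day 0 than in E11.5 kidney (0.50 ± 0.12, adjusted p = 0.0234), while 20 were lower. Of all genes tested there, 17.6% were called higher and 15.7% lower. The list's median was 3.25 over organoid culture and -3.39 at day 0 against E11.5 kidney.

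Of 12 endothelial transcription factors 9 rose and 2 fell over organoid culture. Sox7, the remaining SoxF factor, rose by 3.88 ± 0.61, Erg, an ETS factor, at least 2.46-fold (3.49 ± 0.36) and Lyl1, a basic helix-loop-helix factor of blood and endothelium, by 2.93 ± 0.23. Sox7 and Lyl1 were well above background on 1 of 3 day 0 arrays. Etv2, the ETS factor of early angioblasts, fell at least 4.15-fold (-2.76 ± 0.36), and Gata2, a factor of blood and endothelial precursors, fell by 1.24 ± 0.13 (limma adjusted p = 2.29e-04, not among the 4 with the largest differences and chosen after its value was seen). Lyl1 stood 5.33 ± 0.33 below E11.5 kidney at day 0. In cultured E11.5 kidney, Tal1 was at -2.36 against -0.26 in fresh kidney, and Lyl1 was at -0.75 against 0.91. They were among 5 of 12 factors past 2-fold lower there, on 1 array each, with 0 past 2-fold higher. The list median was -0.65. Of all genes compared, 8.54% were past 2-fold lower and 13.0% higher.

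Of 9 arterial genes 6 rose and 2 fell. The rises included Gja5 (4.33 ± 0.29, 20.1-fold), a connexin of arterial endothelium, Cxcr4 (2.60 ± 0.14), a chemokine receptor, Hey1 (2.51 ± 0.070), a Notch target, and Gja4 (2.42 ± 0.23), another connexin. Gja5 was at -1.10 in fresh and 1.38 in cultured E11.5 kidney. Of 7 venous and lymphatic genes 6 could be tested, and 2 rose and 4 fell, where 28.6% of all genes rose and 41.6% fell. Lyve1, a hyaluronan receptor of lymphatic endothelium and some macrophages, rose at least 1.22-fold (1.72 ± 0.33), Flt4, a VEGF-C receptor well above background on 1 of 3 day 0 arrays, by 1.1 ± 0.22, and Aplnr, the apelin receptor of venous and sprouting endothelium, fell by 0.86 ± 0.25. Lyve1 was the only endothelial list gene called lower against cultured E11.5 kidney (-2.33 ± 0.47, limma adjusted p = 0.0379).

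Of 7 genes linked to glomerular endothelium, the list nearest to Ehd3, 5 rose and 2 fell. Lpl, lipoprotein lipase, rose by 3.1 ± 0.14, Pi16, a peptidase inhibitor, by 2.30 ± 0.27 and Sost, a secreted Wnt antagonist, at least 1.85-fold (2.83 ± 0.13), and Gata5, a GATA factor of glomerular endothelium, fell by 1.53 ± 0.23. Lpl was also higher than in cultured kidney (0.95 ± 0.19, limma adjusted p = 0.0396). Several of these genes are made by other kidney cells too. Against newborn kidney 3 of the 7 were higher and 0 lower, where 24.4% of all genes were called higher and 18.0% lower. The 3 included Smad6 (1.1 ± 0.11), an inhibitory Smad, and Tbx3 (1.03 ± 0.21), a T-box factor.

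Against newborn kidney, day 7 organoids were lower in 6 of 21 general endothelial genes and 6 of 11 tested endothelial transcription factors, and higher in none of either list. Of all genes tested in this comparison, 18.0% were called lower and 24.4% higher. Tek, the angiopoietin receptor, was lower by 12.7-fold (-3.67 ± 0.33, limma adjusted p = 5.50e-04) and Aplnr by 21.4-fold (-4.42 ± 0.36). Adgrl4, an adhesion receptor, was lower too (-4.00 ± 0.79), with only 1 of 3 day 7 arrays well above background. Tek was at -3.86 in cultured E11.5 kidney and -1.47 in fresh E11.5 kidney, with a mean of -4.18 in day 7 organoids. It was the only general endothelial gene of 21 past 2-fold lower after kidney culture, on 1 array each. Past 2-fold higher were 2, and the list median was 0.09. Of all genes compared there, 8.54% were past 2-fold lower and 13.0% higher. Lyl1 (-2.35 ± 0.33), Lmo2 (-1.92 ± 0.31) and Hhex (-1.53 ± 0.34), factors shared by blood and endothelium, were lower than in newborn kidney as well. In the same comparison 8 of 8 tested red cell genes were lower, with a summed signal of 410 in newborn kidney against 0.70 to 2.05, and 5 of 11 leukocyte genes, with 19.4 against 3.03 to 5.80. The part of blood cells in these values was not tested. Among arterial genes Unc5b, a netrin receptor, was higher (1.02 ± 0.16) and Gja4 lower (-1.37 ± 0.33).

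Markers of other cells were read on the same arrays and went different ways. Platelets share Pecam1 and Esam, and the summed signal of 7 platelet genes was 1.06 to 2.60 at day 0, 4.06 to 5.18 at day 7 and 8.18 in E11.5 kidney. Of 3 platelet genes tested, Itgb3, an integrin chain also found outside platelets, rose by 2.76 ± 0.17 to a mean of 2.08, by far the brightest of the list at day 7. Gp1bb, a platelet glycoprotein chain, also rose, and Pf4, a platelet chemokine, fell by 2.37 ± 0.83 (limma adjusted p = 0.0396). Gp9, Gp5 and Ppbp were well above background on 0 of 3 day 7 arrays. Of these 7, 3 to 6 were well above background at day 0 and 3 or 4 at day 7. Leukocytes share Pecam1, and the sum of 12 macrophage and leukocyte genes was 3.83 to 4.58 at day 0, 3.03 to 5.80 at day 7 and 20.5 in E11.5 kidney. Csf1r was by far the brightest of that list in organoids, with means of 1.89 at day 0 and 1.44 at day 7. Of 5 genes tested Csf1r fell (-0.46 ± 0.11), while Aif1 rose at least 3.04-fold (2.76 ± 0.46) and Ptprc rose (2.25 ± 0.37). Aif1 was well above background on 0 of 3 day 0 arrays and Ptprc on 1. Well above background were 3 or 4 of the 12 at day 0, and 4, 11 and 10 in day 7 replicates 1, 2 and 3. Endoderm shares Sox17, and the sum of 7 endoderm genes was 0.36 to 0.57 at day 0 and 4.29 to 5.50 at day 7. The mural cell sum was 94.2 to 100.4 at day 0 and 282 to 338 at day 7, with 7 of 10 genes rising and 1 falling. Acta2 was by far the brightest of that list at day 7, with a mean of 7.78 against 3.89 at day 0. The sum of 10 red cell genes was 33.3 to 273 at day 0 and 0.70 to 2.05 at day 7. Of 6 kidney epithelium genes 6 rose, of 5 tested podocyte genes 3 rose and 0 fell, and of 5 tested pluripotency genes 2 rose and 2 fell. The part of these cells in the members' values was not tested.

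The genes whose pattern over the 12 arrays was most like the mean of the members were Flt1, Erg, Gimap5, Ccm2l, Cldn5, She, Plxnd1, Gimap1, Cd34 and Gimap6, with Pearson's r from 0.991 to 0.995. This likeness is a description over arrays that share groups and slides. Cldn5, a tight junction claudin, was at 2.58 in E11.5 kidney, 2.50 after its culture, -0.71 at day 0 and 2.52 at day 7. Against that mean, which includes each member, the members' own r was 0.969 to 0.991 for 7 of them, and 0.880 for Plvap, 0.824 for Dll4 and 0.566 for Ehd3. Between pairs of members r ran from 0.173 to 0.998 with a median of 0.896 over 45 pairs.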

How the data were processed

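Per the labels' protocols, RNA was purified from each sample and hybridised to one-colour Agilent arrays. Spots were read with Agilent Feature Extraction 11.5.1.1, per the file headers, and the deposited processed signal is an intensity after its background subtraction, whereas version 10.7.3.1 stands in the submitters' processing notes. The authors deposited also a table of log2 values, which equalled the log2 processed signal minus a constant per array, lying -0.0096 to -0.0050 from the log2 75th percentile computed here.

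The log2 of the processed signal was taken, outlier spots (108 to 206 per array) were left out, spots of a probe were averaged, the brightest probe stood for a gene and each array's 75th percentile was subtracted. An accession gave the name of 28026 of 55681 probes, a symbol that of 3418 and a synonym that of 295. The file's name was kept for 1499, and 22443 had none. Genes were tested with limma 3.58.1 (R 4.3.3; figures with Python 3.11.15 and matplotlib 3.10.9) where some group compared had the gene well above background throughout, or, for the stage trend, some array. Organoid groups were fitted on 6 arrays, kidney comparisons on 12 arrays in 8 groups and the trend on 5. All p-values are two-sided and carry Benjamini-Hochberg adjustment over the genes tested, and fits were tested on simulated data. Probe coordinates are those of the files (mm9).

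The members, the lists and the tests were chosen with earlier results of these data known. All members were named. From each list up to 4 genes with the largest difference among those called were named, and the 10 genes most like the member mean. Alternatives were the authors' table, scaling to the median, normexp correction (offset 50), quantile normalization, other filters on dim genes, averaging a gene's probes, trend and robust moderation, blocks for slide and replicate number, single slides and leaving out arrays. Slide 1 alone for day 0 organoids against E11.5 kidney was chosen after seeing the data. Replicate numbers did not pair the samples (correlations of same-numbered arrays from -0.135 to -0.0083).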

Additional observations from a re-analysis of the deposited data

Results flagged for a closer look

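For 5 members the change over 7 days of culture differed between organoids and E11.5 kidney by limma's test of the difference itself, with a single array on each kidney side. The organoid change minus the kidney change was 4.10 for Cdh5, 3.45 for Emcn, 4.27 for Plvap, 4.19 for Sox18 and 3.35 for Esam. These values are not independent of the day 0 difference from E11.5 kidney, which is part of them. Plvap was the one of the 5 whose kidney value was past 2-fold lower after culture (-2.64).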

How the results depend on the processing

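Over the alternatives, the direction and the call of the member results and counts stood in 1336 cases, a call was lost in 58 and gained in 25. The 9 rises over organoid culture were called under every alternative run for them, and with the replicate number as a block 9 members rose and 10494 genes were called in place of 11518. Under normexp correction the member median over organoid culture was 1.14 in place of 3.21, and at day 0 against E11.5 kidney -1.97 in place of -4.05. Genes called at day 0 against E11.5 kidney numbered 5664, but 9698 under normexp and 2225 on slide 1 alone. Against cultured kidney 1336 genes were called, but 3004 under normexp, 866 without a filter, 2088 with trend and robust moderation, 208 with slide as a block and 560 to 1658 on leaving out an array. Against P0 kidney the members lower numbered 2 without a filter and 2 with slide as a block (3826 genes called in place of 7458), and 2 to 4 on leaving out an array, with 0 to 1 higher. Against E15.5 kidney they numbered 6 under normexp, slide as a block called 1918 genes in place of 5379, and leaving out arrays gave 3488 to 5701 genes and 0 to 1 members higher. For the difference of culture changes, normexp called 7608 genes in place of 2765, slide as a block 2 members, and leaving out arrays 2 to 8 members and 1468 to 2727 genes. The stage trend called 4 members under normexp, under quantile normalization, with all arrays above background and with trend and robust moderation. It called 0 with scaling to the median (2754 genes in place of 5193), 0 without a filter and 0 on leaving out any stage (544 to 5556 genes). Scaling to the median put 2 members past 2-fold from E11.5 to E13.5 and 4 from E11.5 to P0. Values that turned sign were those of Dll4 at day 0 against E11.5 kidney (0.018 under normexp) and in the difference of changes (-0.24 under normexp). Against cultured kidney, Ehd3 turned with scaling to the median (0.13), Sox17 with slide as a block (1.03), and 3 members without day 7 replicate 2. Leaving out arrays gave -0.42 to 0.10 for Pecam1, -0.12 to 0.037 for Ehd3 and -0.59 to 0.10 for Dll4. Without E11.5 the trends of Pecam1, Cdh5, Sox18 and Esam turned, and leaving out stages gave -0.10 to 0.16, -0.064 to 0.17, -0.030 to 0.17 and -0.0089 to 0.27. The causes were not tested. Scaling to the median moved the median of all genes against cultured kidney from 0.03 to 0.22 and against E15.5 kidney from -0.08 to 0.03, and normexp moved it at day 0 against E11.5 kidney from 0.04 to 0.14. Lone kidney arrays, and signals near background at day 0 for Sox17, Sox18 and Dll4, limit the precision.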
